A study of Mus musculus with 4 samples.

Results

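Of 34 genes of glycolysis, oxygen sensing and the hypoxia response, 27 gave a measurable signal in sorted mouse peritoneal macrophages, out of 11628 genes tested in all. The genes were chosen by symbol in the platform annotation, without a cut on their values but with earlier results of these data known. They cover the enzymes from hexokinase to pyruvate kinase and the lactate and pyruvate branch. The oxygen sensors, the HIF subunits and known targets of the hypoxia response complete the list. No probe was annotated with Hk2, Gpi1 or Eno1, so 31 genes had a probe. Each gene was read from its brightest probe, and a probe was kept when it was detected (detection p-value under 0.05) on at least 2 arrays. Eno2, Epas1, Vegfa and Bnip3 failed that filter, with no probe of theirs detected on any of the 4 arrays.

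Whole-genome expression was measured on Illumina bead arrays in 2 samples from Mac-Gata6 KO mice (LysM-cre;Gata6-floxed) and 2 samples from control mice. All were untreated C57BL/6 animals of 8 to 16 weeks. LysM-cre expresses Cre recombinase from the lysozyme M locus, which is active in macrophages and other myeloid cells, so the deletion is not limited to the peritoneal cavity. The labels do not say which of the alleles the controls carried, how the cells were sorted, or whether each sample was 1 animal or a pool. The p-values therefore rest on the spread within each pair of samples, shared in part over all genes by the fit, and that spread may be technical.

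Glycolysis splits glucose to pyruvate in the cytosol, and lactate dehydrogenase turns pyruvate into lactate when it is not burnt in mitochondria. HIF transcription factors raise many of these enzymes when oxygen is low. With oxygen present, the EGLN prolyl hydroxylases mark the HIF alpha subunits for VHL-dependent destruction, and HIF1AN blocks their coactivator binding by hydroxylating an asparagine. Macrophages are known for a strong glycolytic programme on inflammatory activation, and the HIF pathway takes part in it.

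Levels are log2 normalized intensities, and changes are Mac-Gata6 KO minus control with standard errors from a limma fit over all genes. A gene was called at a Benjamini-Hochberg adjusted p under 0.05. Levels of different probes cannot be set against each other. In bulk samples of this kind, fewer cells of a type and less RNA per cell cannot be told apart.

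Over the whole array 711 genes were higher and 714 lower in Mac-Gata6 KO, together 12.3% of those tested. The share of the 45281 probes detected per array was 35.5% to 36.4%. Gata6 levels were 13.07 and 12.83 on the knockout arrays and 13.77 and 13.66 on the control arrays. Gata6 stood at 59.0% of its control signal, a log2 change of -0.76 ± 0.15 (adjusted p = 0.0270). Without control 1, control 2, knockout 1 or knockout 2 its adjusted p was 0.132, 0.0971, 0.0557 and 0.104. A dimmer Gata6 probe lay below detection throughout the knockout but not in control, at least 1.74-fold lower. The position of these probes relative to the deleted part is unstated in the labels and tables, and the values alone do not check the genotypes. Macrophage markers were detected on every array, 7 of the 7 with a probe. Their summed intensity lay between 92264.5 and 99272 on the knockout arrays, against 105938 to 107624 on the control arrays. Adgre1 and Fcgr1 were called lower, with log2 changes of -1.56 and -2.94. The other macrophage markers were not called: Csf1r (log2 change 0.46), Lyz2 (0.06), Mertk (0.02), Cd14 (-0.05) and Itgam (-0.44). No T cell marker of 5 was detected. Of the B cell markers 3 of 6 were detected on all arrays, with sums of 1469.8 to 1685 in the knockout and 830.2 to 856 in control. These 3, Cd79b, Blk and Fcmr, were called higher (log2 changes 0.98, 1.12 and 1.04), and Cd22 was not called (0.21). The erythroid sum was 932 to 938 in the knockout and 245 to 254 in control, with Alas2 and Slc4a1 not detected on any array. Hbb-bs, Hbb-bt and Hba-a1 were called higher, and Klf1 was not called. The mast cell sum was 354 to 405 in the knockout and 239.98 to 259 in control, with Kit not detected. Cpa3 was called higher (log2 change 0.71), and Cma1 and Mcpt4 were not called (0.84 and 0.92). Neutrophil markers summed to 828 to 1037 in the knockout and 1619 to 1789 in control. S100a8, called lower, was the only neutrophil marker detected on all arrays, and S100a9, Mpo, Ngp, Ltf and Cxcr2 were not detected on any. Of the mesothelial and stromal markers 5 of 6 were not detected on any array. The part of these cell types in the results below was not tested.

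Of the measured glycolysis and hypoxia genes 23 were not called and 4 were. Egln3 fell below detection in Mac-Gata6 KO, P4ha2 and Pfkm fell, and Ddit4 rose. These are 3 genes called lower and 1 called higher of 27, or 14.8%, beside 12.3% over all genes. By direction the background was 6.14% lower and 6.11% higher. The median log2 change over the 27 genes was 0.05, against -0.01 over all genes, and it was -0.04 without knockout 1. The arrays of the groups did not overlap for 17 of the 27, against 56.8% of all genes. Of these, 9 were higher in the knockout and 8 lower, where 27.6% and 29.2% of all genes did so. Of the genes, 24 were detected on all 4 arrays. Among these 24, 1 was called higher and 2 lower in the same fit, or 12.5%. Egln3 passed the detection filter through the control arrays alone, Aldoc missed detection on 1 knockout array and Pfkfb3 on 1 control array. The number called lower depended on the arrays and on the background correction. It was 1 without control 1 or without control 2 (P4ha2 both times), and 5 without background correction, when Aldoa and Pfkl passed too. The number called higher was 0 without control 1, control 2 or knockout 1, and 2 without background correction, when Hk3 passed.

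**Figure D1:**
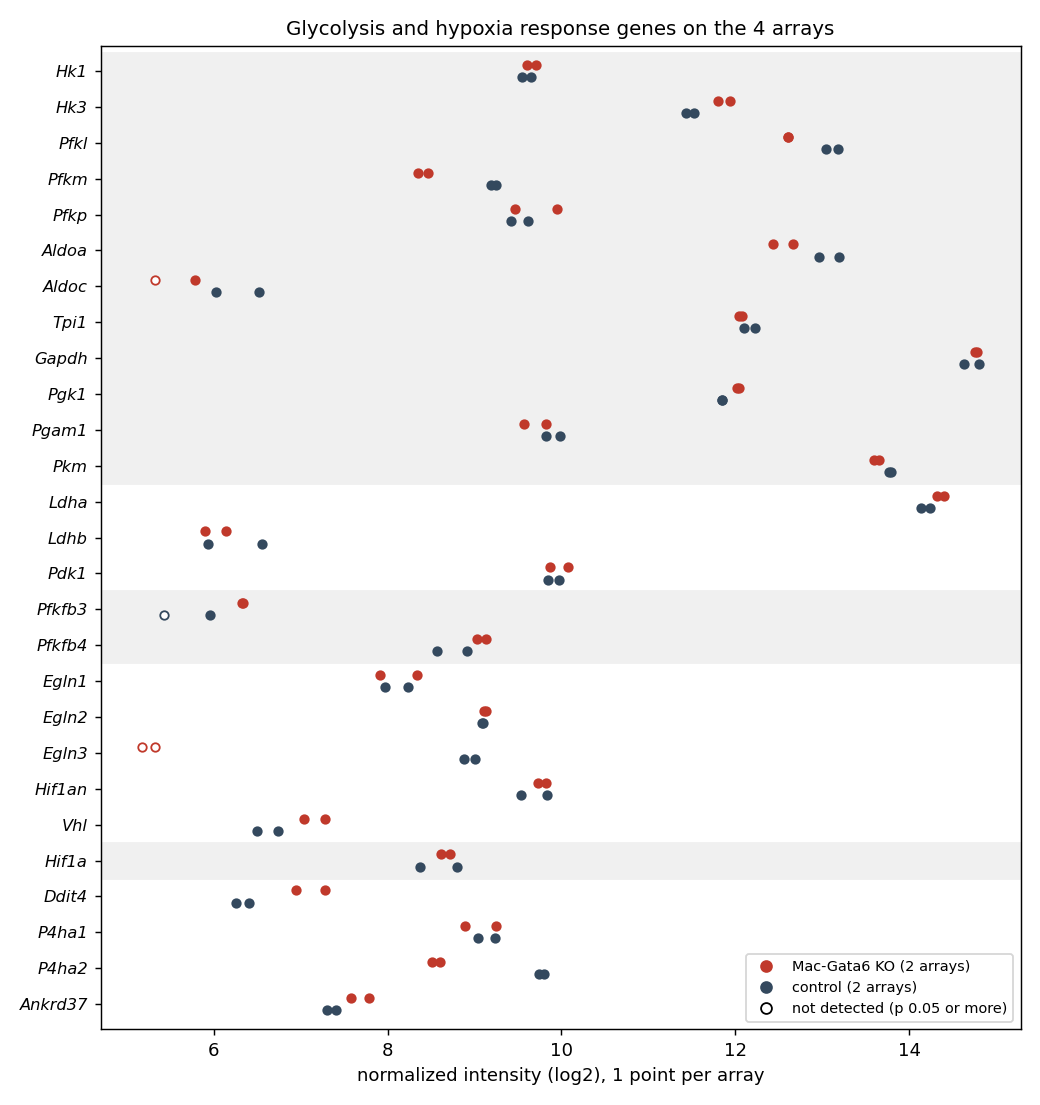
Log2 normalized intensity of the 27 measured genes (x axis), 1 point per array, with Mac-Gata6 KO arrays drawn above control arrays in each row and shaded bands separating the roles. Open points were not detected. Egln3 shows the widest gap, with both knockout points open, and P4ha2, Pfkm and Ddit4 show separated pairs, whereas Gapdh, Hk1 and Egln1 overlap.

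The sequences below show where transcription of the called genes starts. They are given for Egln3, P4ha2 and Ddit4, each of which has a single listed start. Pfkm has 4 listed starts and is not shown. Each runs 5′ to 3′ from 250 bases before to 50 bases after the start (RefSeq, GRCm38.p6). Capitals mark the core of the hypoxia response element to which HIF binds, ACGTG or GCGTG on either strand. Egln3 lies on the minus strand (chr12:54203825-54204124), P4ha2 on the plus strand (chr11:54100674-54100973) and Ddit4 on the minus strand (chr10:59951721-59952020).
Egln3: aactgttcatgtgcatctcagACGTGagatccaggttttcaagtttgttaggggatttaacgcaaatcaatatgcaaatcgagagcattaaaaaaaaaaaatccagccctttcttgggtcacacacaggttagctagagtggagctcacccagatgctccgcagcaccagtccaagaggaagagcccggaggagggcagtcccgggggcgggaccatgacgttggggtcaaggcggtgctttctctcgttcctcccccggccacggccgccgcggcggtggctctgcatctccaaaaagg
P4ha2: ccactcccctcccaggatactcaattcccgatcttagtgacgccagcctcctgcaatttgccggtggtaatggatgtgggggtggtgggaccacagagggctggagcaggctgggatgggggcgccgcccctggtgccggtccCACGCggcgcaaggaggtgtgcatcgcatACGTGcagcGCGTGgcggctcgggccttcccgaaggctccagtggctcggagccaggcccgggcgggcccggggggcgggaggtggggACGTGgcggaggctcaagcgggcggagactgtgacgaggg
Ddit4: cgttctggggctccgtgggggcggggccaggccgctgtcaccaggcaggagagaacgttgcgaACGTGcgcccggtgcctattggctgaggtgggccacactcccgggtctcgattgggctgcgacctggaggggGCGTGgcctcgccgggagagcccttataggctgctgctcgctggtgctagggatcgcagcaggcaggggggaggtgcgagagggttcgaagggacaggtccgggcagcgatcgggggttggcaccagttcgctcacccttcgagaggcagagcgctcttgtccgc

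The core occurred at 1 place in the Egln3 window, 4 in P4ha2 and 2 in Ddit4. The match in Egln3 begins 229 bases before the start. Those in Ddit4 begin 187 and 115 bases before it. P4ha2 has matches 107, 78 and 69 bases before the start and 1 within the first bases of the transcript. The core was present in 43.8% of all 32851 windows of this length, in 31 of the 39 windows of the 27 measured genes, and in at least 1 window of 24 of them, called and uncalled alike. The GATA motif was searched on both strands as AGATAA, also as AGATAG, also as TGATAA and also as TGATAG. It was in none of the 3 windows shown, in 29.8% of all windows and in 9 of the 39 windows of the measured genes. At least 1 window held it in 7 of the 27 genes. Those include Pfkm, where 3 of the 4 windows, some of which overlap, hold the GATA motif and 3 hold the hypoxia core. A match is a description of letters and does not show binding.

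Of the 5 oxygen sensors and HIF regulators (Egln1, Egln2, Egln3, Hif1an and Vhl) 1 was called lower and 0 higher in the limma fit. That is 20%, beside 12.3% over all genes. Vhl, which is not a sensor, was the only one with a higher value at an unadjusted p under 0.05. Egln3, a prolyl hydroxylase that is itself induced by HIF, had levels of 5.32 and 5.18 on the knockout arrays, against 8.88 and 9.01 on the control arrays. Both control arrays detected it and neither knockout array did, at detection p-values of 0.149 and 0.206. Its change is therefore a bound: Egln3 was at least 9.33-fold lower in Mac-Gata6 KO. The probe passed the detection filter through the control arrays alone. Before normalization its mean intensity was 146 in the knockout and 601 in control. The fitted log2 change was -3.69 (adjusted p = 9.96e-05 by limma). That fit uses knockout values at background, so its p-value does not test the bound. The fitted change became -1.94 without background correction and -2.05 with the authors' processed values, and the gene was called in each. Without control 1 or without control 2 the probe was detected on a single array and was not kept. It passed without knockout 1 or knockout 2. The bright probe was designed to the RefSeq transcript. The other probes of Egln3, 1 to the same record and 1 to a cDNA clone, were not detected on any array.

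The other hydroxylases that act on HIF were not called, and their estimated changes lay near 0. Egln1, held to be the main HIF prolyl hydroxylase at normal oxygen, had levels of 8.34 and 7.91 in the knockout, against 7.98 and 8.23 in control. The arrays overlap, and the log2 change was 0.02 with a 95% interval from -0.46 to 0.49. Further probes of Egln1 had log2 changes of 0.00 ± 0.14 and -0.16 ± 0.24. Egln2 had levels of 9.11 and 9.13 in the knockout and 9.08 and 9.09 in control, with an interval of the change from -0.29 to 0.35. Hif1an had a log2 change of 0.09, with an interval from -0.29 to 0.48. The intervals leave room for changes of up to about these sizes in either direction, which these arrays could not detect.

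Vhl encodes the ubiquitin ligase subunit that binds hydroxylated HIF. It had levels of 7.28 and 7.05 in the knockout, against 6.74 and 6.50 in control. The groups did not overlap, and the log2 change of 0.54 ± 0.16 did not pass (adjusted p = 0.0895). Hif1a, the HIF alpha subunit itself, overlapped between the groups, with 8.71 and 8.62 in the knockout and 8.37 and 8.80 in control. Its log2 change was 0.08, with an interval from -0.37 to 0.52. Epas1, which encodes the other main HIF alpha subunit, was not detected with either of its 2 probes.

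The hypoxia response genes went both ways, with 1 called higher and 1 lower of 4 measured, or 50%, beside 12.3% over all genes. P4ha2 encodes a catalytic subunit of collagen prolyl hydroxylase, which modifies procollagen in the endoplasmic reticulum. Its levels were 8.60 and 8.52 on the knockout arrays, against 9.80 and 9.74 on the control arrays. Both knockout arrays lay below both control arrays, at 43.2% of the control signal, a log2 change of -1.21 ± 0.13 (adjusted p = 0.00341). Further probes of a gene were tested in a limma fit over all kept probes. A second P4ha2 probe gave 7.49 and 7.13 in the knockout, against 8.52 and 8.51 in control, a log2 change of -1.21 ± 0.17 (adjusted p = 0.00886). P4ha2 was called with any 1 array left out. The brightest probe of the paralogous subunit P4ha1 overlapped between the groups, at 9.25 and 8.89 in the knockout and 9.04 and 9.23 in control. The interval of its log2 change ran from -0.49 to 0.36. A second P4ha1 probe did not overlap, at 8.60 and 8.56 in the knockout and 8.77 and 8.91 in control. Its log2 change of -0.26 ± 0.15 did not pass (adjusted p = 0.324).

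Ddit4, which restrains mTOR signalling under hypoxia and other stress, was the gene called higher. Its levels were 7.28 and 6.94 on the knockout arrays, against 6.41 and 6.26 on the control arrays. That is a 1.72-fold rise, or 0.78 ± 0.17 on the log2 scale (adjusted p = 0.0345). Its adjusted p was 0.101 without control 1, 0.1502 without control 2 and 0.1301 without knockout 1, and 0.0657 with no detection filter. Ddit4 kept the call without knockout 2 (adjusted p = 0.0472). The log2 change was 0.35 without background correction and 0.37 with the authors' processed values, both called. Ankrd37, a hypoxia-induced ankyrin repeat gene, had 7.79 and 7.58 in the knockout and 7.31 and 7.41 in control, and did not pass (log2 change 0.33 ± 0.15, adjusted p = 0.216). Vegfa, the endothelial growth factor, and Bnip3, a mitophagy receptor, were not detected on any array in either group.

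**Figure D2:**
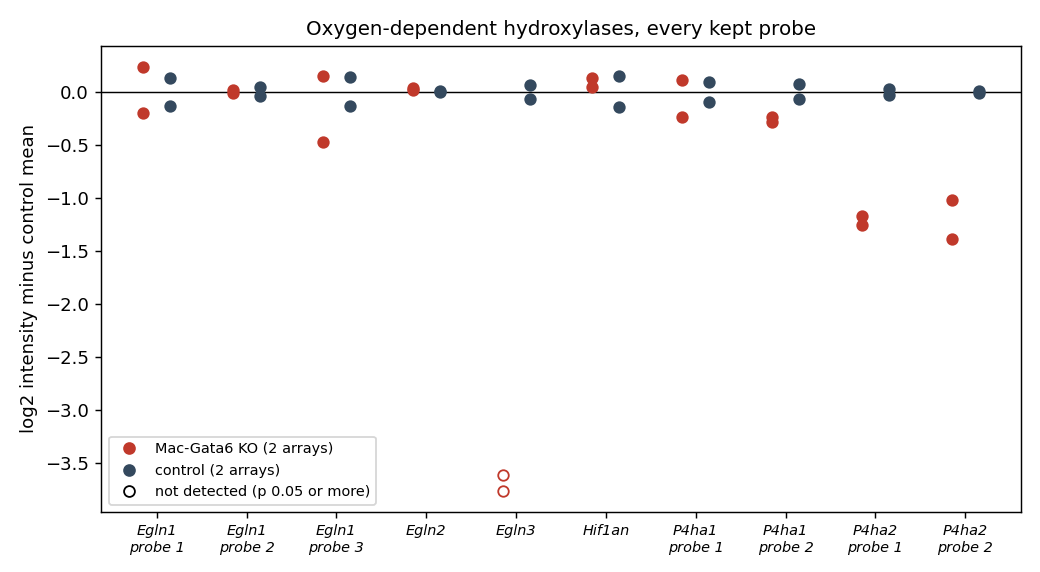
Kept probes of the oxygen-dependent hydroxylases Egln1, Egln2, Egln3, Hif1an, P4ha1 and P4ha2 (x axis), with each array's log2 intensity minus the mean of the 2 control arrays (y axis). Both P4ha2 probes average -1.21 in the knockout, with the knockout points of the second probe further apart. Egln3 lies near -3.69 with open, undetected points, while the knockout arrays of Egln2 and Hif1an lie near 0.

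Of the glycolytic enzymes 12 of 16 were measured, of which 1 was called lower, 0 higher and 11 were not called. The share called was 8.33%, beside 12.3% over all genes. At an unadjusted p under 0.05, 4 were lower and 1 was higher in the same limma fit, beside 14.6% lower and 13.3% higher over all genes. Pfkm was the called one. It is the muscle-type isoform of phosphofructokinase, the main control point of the pathway. Its levels were 8.35 and 8.47 on the knockout arrays, against 9.19 and 9.25 on the control arrays. The groups were apart by more than the spread within either, at 57.0% of the control signal and a log2 change of -0.81 ± 0.14 (adjusted p = 0.0150). The adjusted p was 0.0682 without control 1, 0.0874 without control 2, 0.0811 without knockout 1 and 0.0504 without knockout 2. A second, dimmer Pfkm probe was lower by a log2 change of -0.45 ± 0.17 without passing (adjusted p = 0.161).

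The other phosphofructokinase genes were not called. Pfkl, the liver-type isoform, had 12.60 and 12.60 in the knockout, against 13.04 and 13.18 in control. The groups did not overlap, and the log2 change of -0.51 ± 0.14 had an adjusted p of 0.0675. A second, dimmer Pfkl probe went the other way, at 0.13 ± 0.16, and did not pass either. Pfkp, the platelet-type isoform, overlapped between the groups, at 9.95 and 9.46 in the knockout and 9.42 and 9.62 in control. The enzymes that make and break the sugar-phosphate activator of phosphofructokinase also did not pass, with log2 changes of 0.64 ± 0.20 for Pfkfb3 (adjusted p = 0.0991) and 0.34 ± 0.17 for Pfkfb4 (adjusted p = 0.251). Pfkfb3 changed by 0.22 without background correction and 0.24 with the authors' processed values, and by 0.38 without control 2. Pfkfb4 changed by 0.17 without control 2 and by 0.51 without control 1. At an unadjusted p under 0.05, 1 of these 2 was higher.

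Aldolases, which cleave fructose bisphosphate into triose phosphates, had lower values in the knockout without passing. Aldoa had 12.67 and 12.44 in the knockout, against 13.19 and 12.96 in control, a log2 change of -0.52 ± 0.16 (adjusted p = 0.0947). Aldoc was dim, at 5.32 and 5.79 in the knockout and 6.52 and 6.02 in control (adjusted p = 0.109). Hk3, a hexokinase isoform typical of myeloid cells, had the highest positive change of the 12 measured enzymes from hexokinase to pyruvate kinase, at 11.93 and 11.80 in the knockout against 11.52 and 11.44 in control. Its log2 change of 0.39 ± 0.14 did not pass (adjusted p = 0.132). Hk1, the ubiquitous hexokinase, overlapped between the groups with a log2 change of 0.06 ± 0.14.

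None of the later enzymes of the pathway was called. Gapdh, which makes the first NADH of the pathway, had 14.78 and 14.75 in the knockout, against 14.63 and 14.80 in control, with an interval of the log2 change from -0.29 to 0.39. The sign of that change depends on the scaling, at 0.05 here and -0.10 with median scaling. Log2 changes of triose phosphate isomerase Tpi1, phosphoglycerate kinase Pgk1, phosphoglycerate mutase Pgam1 and pyruvate kinase Pkm lay between -0.20 and 0.19, and none passed; Tpi1 turned positive as the mean of its probes. For Tpi1, detected with 3 probes, the log2 changes of the brighter ones were -0.10 ± 0.14 and -0.27 ± 0.15. The dim Tpi1 probe was detected on the knockout arrays and on neither control array, a bound of at least 1.21-fold higher. Its fitted log2 change of 0.56, which uses control values below detection, did not pass by limma (adjusted p = 0.115). That p-value does not test the bound. Another Pgam1 probe had a log2 change of 0.16 ± 0.20, opposite in sign to the brighter one.

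In the lactate and pyruvate branch 0 of 3 genes were called by limma and 0 had an unadjusted p under 0.05 in either direction. Ldha, the lactate-forming dehydrogenase subunit, had 14.31 and 14.39 in the knockout, against 14.24 and 14.14 in control. Its log2 change was 0.16, with an interval from -0.17 to 0.50. Pdk1, a kinase that shuts pyruvate out of mitochondrial oxidation, had 10.07 and 9.87 in the knockout and 9.85 and 9.97 in control. Ldhb, the subunit that favours lactate use, was dim and varied by 0.63 between the control arrays, more than its difference between the groups of -0.22.

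**Figure D3:**
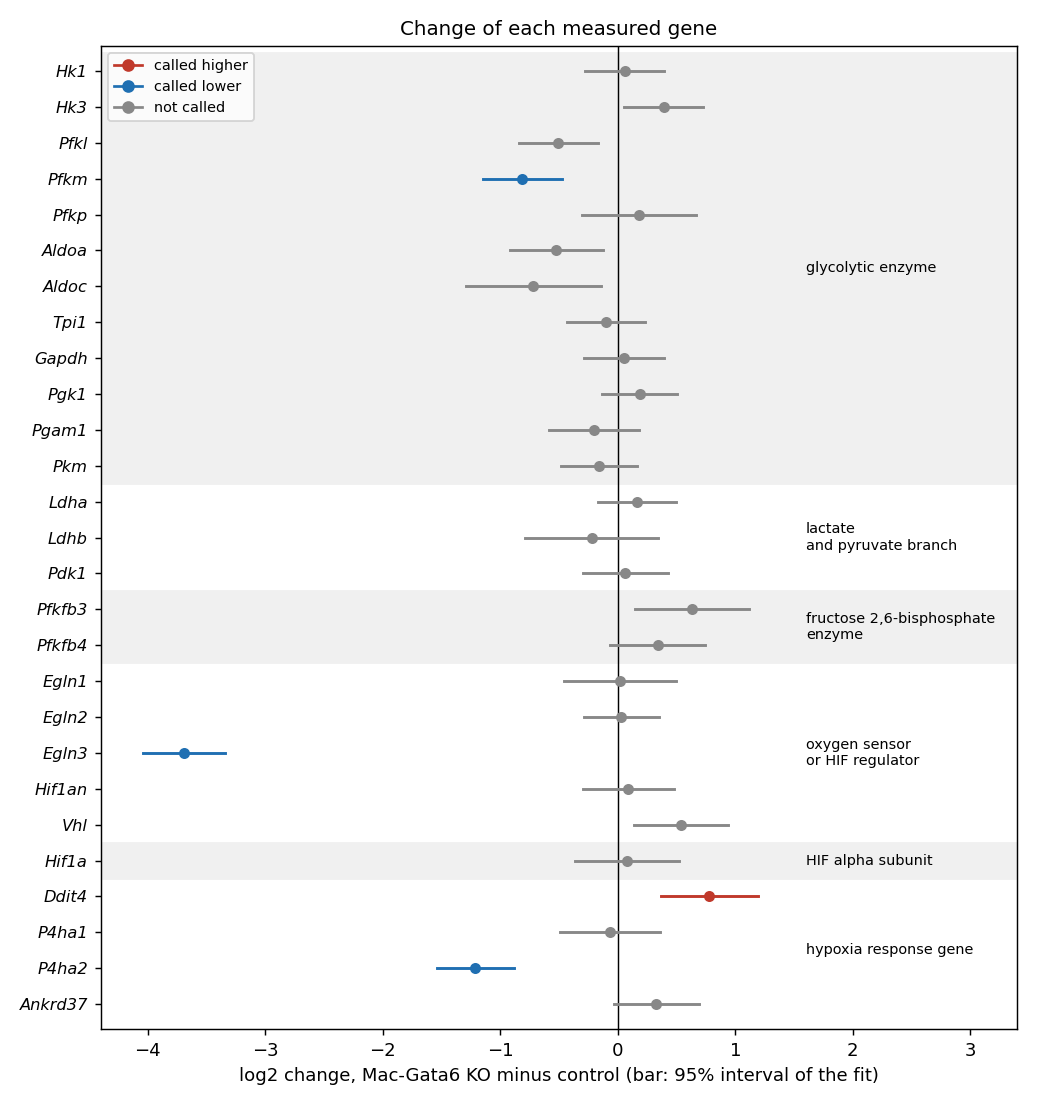
Fitted log2 change of each of the 27 genes (Mac-Gata6 KO minus control, x axis) with its 95% interval, ordered by role. Blue marks the 3 genes called lower (Egln3, P4ha2, Pfkm), red the 1 called higher (Ddit4) and grey those not called. The value for Egln3 is fitted to a knockout signal at background, so its size is not a measurement, and the bound of at least 9.33-fold is smaller than the plotted value.

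Of 93 further genes of glucose use and the hypoxia response, 56 were measured, of which 4 were called higher, 3 lower and 49 were not called. That is 12.5%, beside 12.3% over all genes, with a median log2 change of -0.04. The count called lower was 10 without background correction and 1 without any one of control 1, control 2, knockout 1 or knockout 2. Hif3a, a HIF alpha paralog of which short forms inhibit HIF, had 8.08 and 8.30 on the knockout arrays, against 6.29 and 6.10 on the control arrays. Every knockout value lay above the control values, by 1.99 ± 0.16 on the log2 scale (adjusted p = 0.000974). The change of this probe was 1.05 without background correction and 1.11 with the authors' processed values, both called. A second, dim Hif3a probe, detected on 1 array of each group, overlapped between the groups with a log2 change of 0.13 ± 0.38. The mean of both Hif3a probes changed by 1.06 (adjusted p = 0.0194).

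Slc2a1, the glucose transporter GLUT1, had 7.42 and 7.50 in the knockout, against 8.42 and 8.48 in control. The signal was 0.503-fold that of control, a log2 change of -0.99 ± 0.13 (adjusted p = 0.00690), which was -0.64 and still called without background correction. It was the only one of the 4 measured transport genes to be called, or 25%, beside 12.3% over all genes. Fbp1, the fructose bisphosphatase that runs the phosphofructokinase step backwards, had 8.80 and 9.19 in the knockout and 7.40 and 7.70 in control, a 2.73-fold rise (log2 change 1.45 ± 0.19, adjusted p = 0.00651). The groups did not overlap for either gene.

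Among other hypoxia response genes 2 of 19 were called higher and 2 lower, or 21.1%, beside 12.3% over all genes. Of the 19, 10 had a positive log2 change and 9 a negative one. Haem oxygenase Hmox1 rose 2.11-fold (log2 change 1.07 ± 0.14, adjusted p = 0.00620), with 12.78 and 12.67 in the knockout against 11.58 and 11.72 in control. Transferrin receptor Tfrc rose 3.65-fold (log2 change 1.87 ± 0.16, adjusted p = 0.00136), with 9.67 and 9.47 in the knockout against 7.82 and 7.58 in control. Erythroid precursors also express Tfrc. The erythroid sums given above were higher in the knockout. Hbb-bs and Hba-a1, detected on the knockout arrays alone, were at least 5.72-fold and 5.11-fold higher. Hbb-bt was called higher (log2 change 1.74) and Klf1 was not called (0.60), while Alas2 and Slc4a1 were not detected on any array. The part of such cells in the Tfrc change was not tested. Transferrin itself, Trf, had a log2 change of -0.67 ± 0.14 (adjusted p = 0.0292). Vegfb, a relative of Vegfa, had a log2 change of -0.62 ± 0.15 (adjusted p = 0.0480). Trf and Vegfb lost the call with any 1 array left out, at adjusted p from 0.0909 to 0.152 for Trf and from 0.102 to 0.213 for Vegfb. Vegfb also lost it with median scaling (adjusted p = 0.0594) and with no detection filter (adjusted p = 0.0835).

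Genes of pyruvate dehydrogenase and its regulators had mostly negative values. Of 8 measured, 6 had a negative log2 change, with a median of -0.39. By limma 0 were called, and 5 had an unadjusted p under 0.05, all with lower values, beside 14.6% lower over all genes. Dlat, the acetyl-transferring subunit, had a log2 change of -0.60 (adjusted p = 0.0516). The kinases Pdk4 and Pdk3, which switch the complex off, had log2 changes of -0.58 (adjusted p = 0.0547) and -0.54 (adjusted p = 0.0593). Kinases Pdk2 and Pdk1, which act on it in the same way, had positive changes of 0.26 (adjusted p = 0.637) and 0.06 (adjusted p = 0.827). Of the HIF partners and turnover genes 12 of 13 were not called, among them the HIF beta subunit Arnt, at -0.04.

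**Figure D4:**
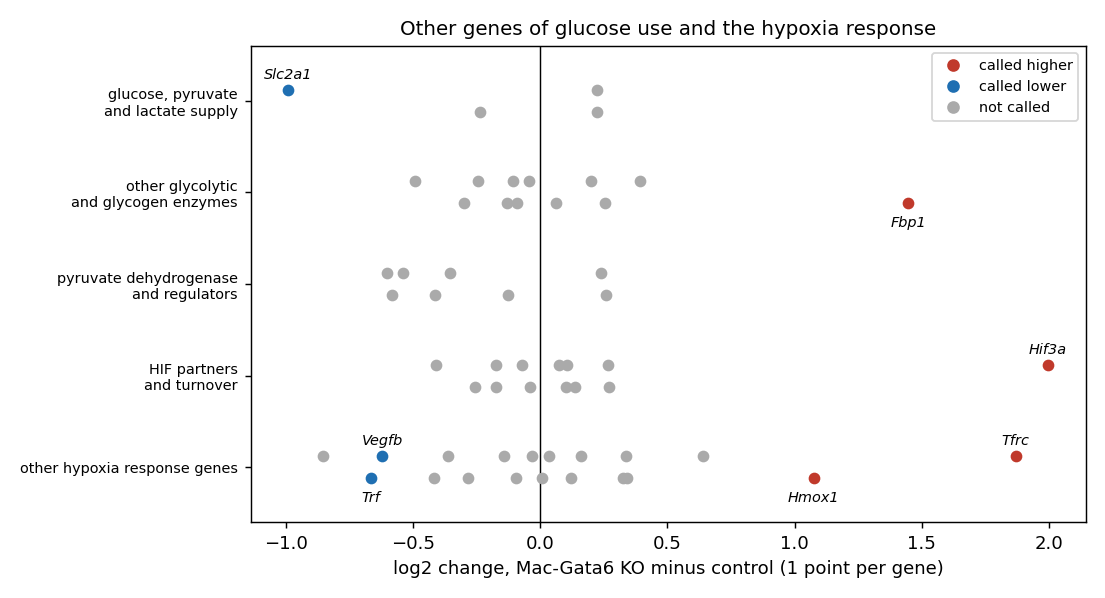
Log2 change (Mac-Gata6 KO minus control, x axis) of the 56 further measured genes, 1 point per gene, in 5 groups by function (y axis; the vertical offset within a group only separates points). Named points passed the test: Hif3a, Tfrc, Fbp1 and Hmox1 higher, and Slc2a1, Trf and Vegfb lower.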

How the data were processed

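Total RNA of 4 samples was labelled as biotinylated cRNA for Illumina bead arrays, per the labels' protocols. The authors deposited non-normalized probe intensity and a detection p-value for every array, per the file headers. Their other deposited table has processed intensity values, with medians between 142.05 and 142.14 on the 4 arrays. No source used here names the software.

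Background correction, quantile normalization and log2 used the neqc function (limma 3.58.1, R 4.3.3, offset 16). Probes detected at p under 0.05 on 2 or more arrays were kept, 16713 of 45281. The brightest kept probe stood for a gene, which gave 9200 named genes and 2428 unnamed probes. In the annotation 34885 probes had 1 symbol, 18 had several and 10378 had none.

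The knockout against control comparison used limma's lmFit and eBayes, two-sided, with Benjamini-Hochberg adjustment over all 11628 genes and no block. The fit was tested on simulated data with normal errors and gene variances drawn from those limma fitted to these arrays. Such data share the assumptions of the fit, so the test does not check them. A fold bound sets the brighter group's mean against, per array of the dim group, the probe's value or the lowest detected signal, whichever is higher. The number of arrays limits the precision.

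Every gene of the list was to be named by role, and of the 93 further genes those called, up to 8 a direction. Others (Dlat, Pdk2, Pdk3, Pdk4, Arnt) were chosen after their values were seen. The genes and lists were chosen with earlier results of these data known. Promoter windows came from RefSeq (GRCm38.p6), where 33 of the 34 symbols matched, Epas1 not. Alternatives covered background, offset, scaling, the authors' values, detection filter, probes, variance model, replicate block, fold minimum and leaving out each array.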

Additional observations from a re-analysis of the deposited data

How the results depend on the processing

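With 1 gene of the list called higher, 3 lower, and 711 and 714 genes over the array, the settings gave the following. Without background correction 2 members were higher and 5 lower, over the array 1090 and 1155. With the authors' values 2 and 5, over the array 1100 and 1142. With a trended, robust variance 2 and 5, over the array 1089 and 1134. An offset of 50 gave 5 members lower. With no detection filter 0 members were higher. A minimum of 1.5-fold gave 0 higher (4 at unadjusted p under 0.05 without the minimum, by limma) and 1 lower, over the array 184 and 187, since it asks for larger changes. Of the further pathway genes, 4 higher and 3 lower, 10 were lower without background correction, with the authors' values and with the trend, 8 with an offset of 50 and 7 when detected on all 4 arrays. With the minimum 2 were higher and 0 lower. Leaving out 1 array gave 0 to 1 members higher, 1 to 2 lower, 249 to 390 genes higher, 238 to 416 lower, and 4 pathway genes higher and 1 lower. With fewer arrays the degrees of freedom drop, and the lone array of a group is assumed to vary like the other group. The cause of the other differences was not tested.

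Of the genes called, Egln3 kept its call in every setting that kept its probe, with fitted log2 changes from -3.76 to -1.94. P4ha2 lost it with the minimum alone (adjusted p = 0.0518), and Pfkm and Ddit4 lost it there too, beside the losses given above. Aldoa passed in 4 settings, Pfkl in 5 and Hk3 in 3. Without background correction the log2 changes of dim genes that were not called shrank, to -0.26 for Aldoc, 0.26 for Vhl and 0.19 for Ankrd37. Signs turned for genes that were not called. With median scaling Gapdh became -0.10 and P4ha1 0.0048. As the mean of the probes Tpi1 became 0.062 and Egln1 -0.046. Other kept probes gave 0.13 for Pfkl, 0.56 for Tpi1 (against control arrays below detection), 0.16 for Pgam1 and -0.16 for Egln1. With 1 array left out the log2 change ranged from -0.057 to 0.42 for Pfkp, from -0.038 to 0.12 for Gapdh, from -0.55 to 0.091 for Ldhb, from -0.040 to 0.16 for Pdk1, from -0.20 to 0.23 for Egln1, from -0.057 to 0.24 for Hif1an, from -0.14 to 0.30 for Hif1a and from -0.24 to 0.11 for P4ha1. The settings for Gata6, the pathway genes by name and the list's median were added after seeing the data. Median scaling moved the median of all genes to 0.04.

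The labels do not say that replicate numbers pair the samples, and the correlation over genes (not independent of each other) between deviations of equal-numbered arrays was -0.13. Under the replicate block 1 member was higher and 3 lower, 597 genes higher and 560 lower, and Gata6 changed by -0.76 on the log2 scale (adjusted p = 0.0385). Trf and Vegfb lost the call (adjusted p = 0.0611 and 0.0842). Signal over background limits Egln3, whose change is a bound, and Eno2, Epas1, Vegfa and Bnip3, for which no comparison could be made.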
